A study of Mus musculus with 23 samples.

Results

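The 10 smooth muscle genes followed here, *Acta2*, *Actg2*, *Tagln*, *Myh11*, *Cnn1*, *Des*, *Myl9*, *Lmod1*, *Synpo2* and *Smtn*, were listed by name for their place in the contractile machinery of the gut wall. They were chosen with earlier results of these data known. Every probe carrying one of these names on the array was taken, which gave 22 of 56605 probes, and 21 of them were among the 37161 probes with deposited values. The remaining probe, a second one for *Myl9*, was above background on 1 of 23 arrays. Expression was measured in whole pieces of mouse ileum, the last part of the small intestine, with 1-colour Agilent microarrays. All mice were males of the C57BL/6J background, and all received injections into the abdomen on 4 consecutive days before tissue was taken 6 h after the last one. WT CONT mice (n = 6) carried no deletion and received corn oil, and WT PCN mice (n = 5 of 6 allocated) received 100 mg/kg of PCN in corn oil. PCN is a synthetic steroid that activates the rodent pregnane X receptor (PXR), a nuclear receptor that switches on drug metabolism genes. Pxr-/- CONT (n = 6) and Pxr-/- PCN mice (n = 6) lacked this receptor and received the same oil or dose. WT mice were bought at 6 weeks of age, whereas Pxr-/- mice came from a colony bred in-house, so that genotype and origin of the mice cannot be told apart. The age of the Pxr-/- mice is not given, so age may also differ between the genotypes. All mice were acclimatised for 2 weeks before allocation and were killed 6 h after lights on.

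Smooth muscle shortens when myosin filaments pull on actin filaments. *Acta2* and *Actg2* encode the actins of vascular and enteric smooth muscle, *Myh11* encodes the myosin heavy chain and *Myl9* the regulatory light chain whose phosphorylation starts contraction. *Tagln* (transgelin), *Cnn1* (calponin), *Smtn* (smoothelin), *Lmod1* (leiomodin) and *Synpo2* encode proteins that bind or assemble actin, and *Des* (desmin) encodes the intermediate filament that ties the contractile units together. In the ileum these genes are read mainly from the muscle layers of the wall, the thin muscle under the mucosa and blood vessels, and serum response factor with its partner myocardin is known to drive many of them through a DNA element named the CArG box.

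The probes are shown because they decide which stretch of each transcript was read. *Actg2*, whose probe is not printed, passed both the adjusted p described below and the fold of 1.5 with PCN in Pxr-/- mice. Among the genes printed here, *Cnn1* and *Tagln* passed that adjusted p, and of these only *Cnn1* also passed the fold. *Myh11* and *Acta2* passed neither. The first 30 of the 60 bases of the brightest probe of each of these genes, taken from the array files, were as follows.
Cnn1: acacacgcattttggttttgcagtgactgg
Tagln: ctttgaaggagacccagcccagcctctaca
Myh11: accaggagaggaaacgaggcttcatttgtt
Acta2: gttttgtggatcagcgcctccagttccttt
On the mm9 build named by the array files, the *Cnn1* probe lay at chr9:21913058-21913117 on the plus strand and the *Tagln* probe at chr9:45738097-45738156 on the minus strand. The *Myh11* probe spanned 2925 bases of chromosome 16 from 14195223 to 14198147, which a 60-base probe covers only across an exon junction, and the *Acta2* probe lay at chr19:34316060-34316119, both on the minus strand. Muscle actin genes share much of their coding sequence, and hybridisation of one actin's RNA to the probe of another was not tested.

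Promoter sequence is shown because the members varied together from array to array. Of the 10 genes, 7 had a window in the RefSeq promoter table of GRCm38.p6, which holds 250 bases before and 50 bases after each transcription start. The last 200 bases before the start are printed for 3 of them, with capitals marking CArG boxes and CArG-like boxes, the latter being boxes with 1 C or G among the 6 inner bases that are otherwise A or T.
Myl9: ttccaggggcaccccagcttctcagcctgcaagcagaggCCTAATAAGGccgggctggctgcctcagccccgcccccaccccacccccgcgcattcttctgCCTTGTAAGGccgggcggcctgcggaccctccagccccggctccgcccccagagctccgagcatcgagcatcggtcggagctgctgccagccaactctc
Acta2: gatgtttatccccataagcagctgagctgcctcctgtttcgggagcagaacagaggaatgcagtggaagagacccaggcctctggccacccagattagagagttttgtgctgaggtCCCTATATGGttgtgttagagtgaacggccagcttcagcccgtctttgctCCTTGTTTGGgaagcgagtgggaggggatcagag
Cnn1: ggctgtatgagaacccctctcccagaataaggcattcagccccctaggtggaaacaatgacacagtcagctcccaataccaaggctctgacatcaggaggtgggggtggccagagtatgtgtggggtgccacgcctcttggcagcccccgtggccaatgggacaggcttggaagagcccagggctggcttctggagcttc
The *Myl9* stretch is chr2:156775264-156775463 on the plus strand, the *Acta2* stretch chr19:34255374-34255573 on the minus strand and the *Cnn1* stretch chr9:22099053-22099252 on the plus strand. The CArG pattern, though not necessarily the bases of a given box, reads the same on both strands. A CArG box was found in 1 of the 7 windows, that of *Myl9*, starting 161 bases before the transcription start, against 1.63% of all 32851 windows. CArG-like boxes were found in 2 of the 7, *Acta2* (84 and 34 bases before the start) and *Myl9* (99 bases before), against 8.5% of all windows. The *Cnn1* window held neither, which says only that these letters are not in this stretch.

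All 10 genes gave signal above background, although the only *Lmod1* probe was dim. Its mean of 7.035 on the log2 scale was the lowest among the brightest probes and lay under the array median of 8.02. The brightest probe of each gene, which stands for the gene below unless another probe is named, was above background on 23 of 23 arrays, and 0 spots of the 22 probes were saturated. Across arrays the median signal was 74 to 106.5 over a background of 19 to 28.5, 62.7 to 68.8% of probes were above background, and each array correlated with the others of its group at a median r of 0.99 to 0.9949. The number of arrays limits the precision. *Vil1*, a defining gene of gut epithelium, had mean levels of 16.48 to 16.65 in the 4 groups on the log2 scale of the deposited values, next to the strong muscle signals, so that signal of both epithelium and muscle wall was present. *Nr1i2*, which encodes PXR, had means of 12.14 ± 0.16 in WT CONT and 12.17 ± 0.30 in WT PCN against 11.73 ± 0.36 in Pxr-/- CONT and 11.71 ± 0.18 in Pxr-/- PCN (SD), and single arrays of the genotypes overlapped. Where its probe lies relative to the deleted part is not given in the sources used here, so these levels do not check the genotype labels, and the groups are named as labelled.

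With PCN, *Actg2* and *Cnn1* rose in Pxr-/- mice, 1.59-fold and 1.58-fold. *Tagln*, at 1.497-fold in these mice, passed the adjusted p and not the fold of 1.5, and *Des*, at 1.388-fold, passed neither there. In WT mice these 4 genes gave 1.26-fold to 1.48-fold, and none of them passed the test. The other 6 members passed neither the adjusted p nor the fold in any of the PCN comparisons. A gene was called where its adjusted p, taken over all 37161 probes, did not exceed 0.05 and its fold exceeded 1.5. In a piece of whole ileum, fewer muscle cells and less RNA per muscle cell cannot be told apart, and neither can more of them.

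In WT mice, PCN led to 0 called members of 10 by limma, against 0.857% of the 23808 genes when each is represented by its brightest probe. An unadjusted p under 0.05 was reached by 4 members that were higher and by 1, *Smtn*, that was lower. The share of all genes at this unadjusted p was not counted. The median difference over the members was 0.13 on the log2 scale, against -0.01 over all genes, and 7 of 10 members were higher with PCN. In Pxr-/- mice, 2 of 10 members were called higher, against 0.966% of all genes called higher (1.21% in either direction), and 3, with *Tagln*, were higher by the adjusted p alone, against 2.66%. The median difference was 0.28 against 0 over all genes, and 10 of 10 members were higher. With the effect averaged over both genotypes, 1 member, *Actg2*, was called, against 1.24% of all genes. By the adjusted p alone, 4 of 10 members, *Actg2*, *Cnn1*, *Tagln* and *Des*, were higher in this average, against 5.31% of all genes. The CONT arrays of each genotype enter both the separate and the averaged comparison, which are therefore not independent. Because the members were chosen with earlier results of these data known, the shares of all genes are a description and not a test.

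**Figure D1:**
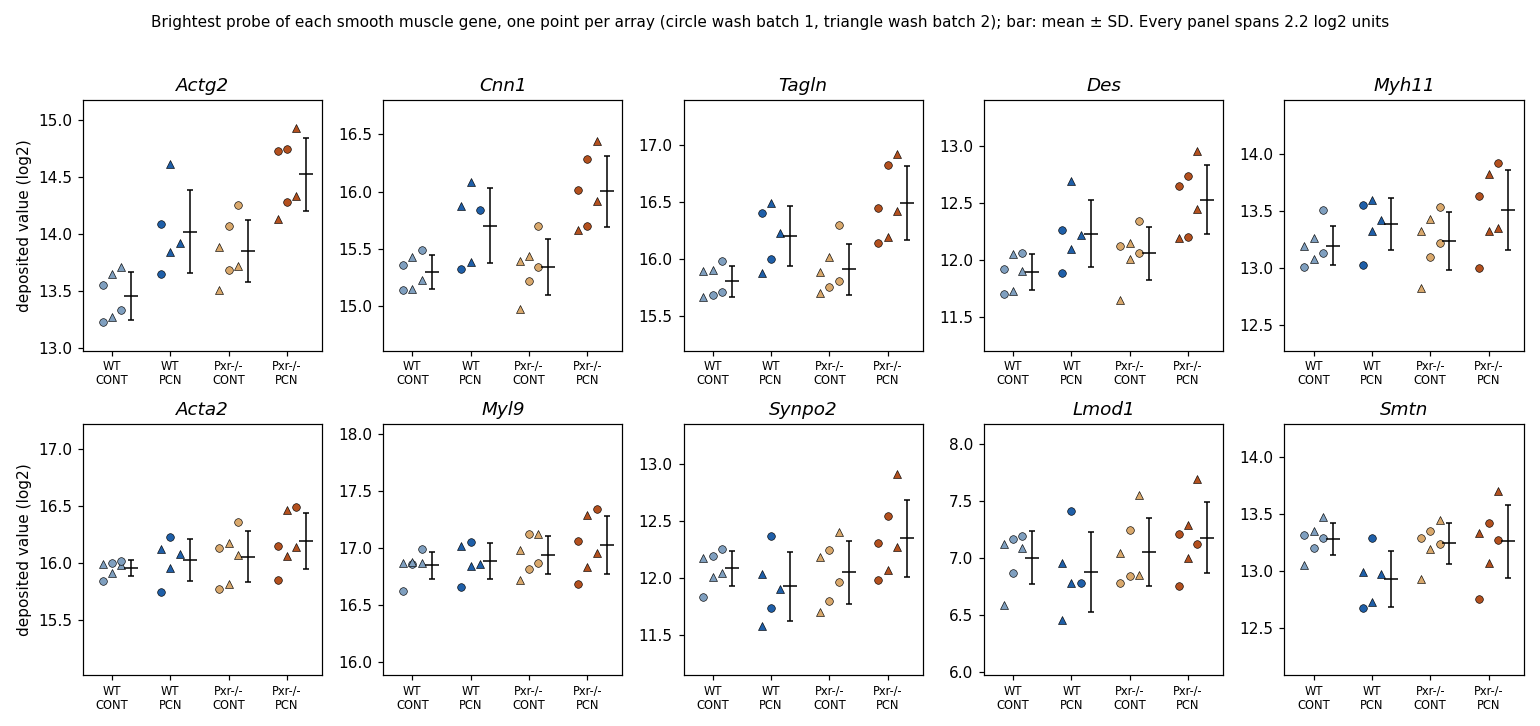
Deposited log2 value (y axis, all panels of equal height in log2 units) of the brightest probe of each gene in the 4 groups (x axis), with 1 point per array, circles for wash batch 1, triangles for wash batch 2 and bars for mean ± SD. *Actg2*, *Cnn1* and *Tagln* sit higher in PCN than in CONT mice with overlap at the edges, whereas *Acta2*, *Myl9* and *Lmod1* shift by at most 0.14 in either genotype.

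*Actg2*, the actin of enteric smooth muscle, showed the largest difference among the members. Its log2 values in WT CONT ran from 13.23 over a median of 13.45 to 13.72, and the WT PCN arrays read 13.65, 13.85, 13.92, 14.09 and 14.62. All 5 PCN arrays lay above the CONT mean and 4 of 5 above the highest CONT array, so the groups overlapped by a single array. The difference was 0.57 ± 0.17 (SE), with an adjusted p of 0.121 by limma. In Pxr-/- CONT the values ran from 13.52 over 13.81 to 14.26, and in Pxr-/- PCN from 14.13 over 14.53 to 14.93. Here 5 of 6 PCN arrays lay above every CONT array, and the rise was 0.67 ± 0.16 (SE, 95% confidence interval 0.33 to 1.00, adjusted p = 0.0238 by limma). Within wash batch 1 the difference in Pxr-/- mice was 0.58 and within wash batch 2 it was 0.76, with adjusted p-values of 0.512 and 0.132 by limma when each batch was fitted alone. The averaged effect was 0.62 ± 0.12 (SE, adjusted p = 0.00221 by limma).

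*Cnn1* encodes calponin, an actin-binding brake on the myosin motor. Its values in WT CONT ran from 15.14 over 15.29 to 15.49, and the WT PCN arrays read 15.32, 15.38, 15.84, 15.87 and 16.08. The 2 lowest PCN arrays lay among the controls and the other 3 above them, a difference of 0.41 ± 0.15 (SE, adjusted p = 0.264 by limma). In Pxr-/- mice the CONT arrays ran from 14.97 over 15.36 to 15.70 and the PCN arrays from 15.66 over 15.97 to 16.44, and only the lowest PCN array fell below the highest CONT array. The rise was 0.66 ± 0.15 (SE, 95% confidence interval 0.36 to 0.97, adjusted p = 0.0154 by limma), with 0.58 within wash batch 1 and 0.74 within wash batch 2. A second, dimmer *Cnn1* probe gave 0.30 in WT (adjusted p = 0.544) and 0.57 in Pxr-/- mice (adjusted p = 0.06), in the same direction and short of the threshold.

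*Tagln*, an early marker of smooth muscle that bundles actin, had 1 probe. It ran from 15.67 over 15.80 to 15.98 in WT CONT, and the WT PCN arrays read 15.87, 16.00, 16.22, 16.40 and 16.49, with 4 of 5 above every control (0.39 ± 0.14, SE, adjusted p = 0.234 by limma). Among Pxr-/- mice it ran from 15.70 over 15.84 to 16.29 without and from 16.14 over 16.43 to 16.92 with PCN. This difference of 0.58 ± 0.14 (SE) had an adjusted p of 0.0207 by limma, and at a fold of 1.497 it stood just under the fold of 1.5 asked of a called gene. *Des*, the muscle intermediate filament, ran from 11.71 over 11.92 to 12.06 in WT CONT, and the WT PCN arrays read 11.88, 12.10, 12.22, 12.26 and 12.70, with 4 of 5 above every control. In Pxr-/- mice *Des* ran from 11.65 over 12.10 to 12.34 without and from 12.19 over 12.55 to 12.96 with PCN. The differences were 0.34 ± 0.15 in WT and 0.47 ± 0.14 in Pxr-/- mice (SE), with adjusted p-values of 0.354 and 0.0594 by limma. A second *Des* probe, above background on 18 of 23 arrays, differed by 0.04 and 0.33 in the 2 genotypes.

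The myosin genes and the vascular actin did not pass the test. *Myh11* ran from 13.01 over 13.17 to 13.51 in WT CONT, read 13.03, 13.32, 13.43, 13.56 and 13.60 in WT PCN, and ran from 12.83 over 13.27 to 13.53 and from 13.00 over 13.49 to 13.93 in Pxr-/- CONT and Pxr-/- PCN. The PCN arrays of both genotypes overlapped most of the range of their controls and reached past its upper end. Its differences were 0.19 in WT and 0.27 in Pxr-/- mice, with adjusted p-values of 0.694 and 0.306 by limma, and its 3 other probes ranged from -0.04 to 0.22. *Myl9* differed by 0.04 (95% confidence interval -0.19 to 0.27) and 0.09 (-0.13 to 0.31), and *Acta2* by 0.07 (-0.17 to 0.31) and 0.14 (-0.09 to 0.37). For the brightest probes of these 2 genes the intervals leave out a fold of 1.5 in either direction. The *Acta2* probes disagreed in Pxr-/- mice, where the other 3 gave 0.02, 0.39 and -0.12. The probe at 0.39 had an adjusted p of 0.106 by limma, and its interval of 0.11 to 0.66 takes in a fold of 1.5.

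The remaining actin regulators did not pass the test. *Smtn*, which encodes a protein of fully differentiated contractile muscle, ran from 13.06 over 13.30 to 13.47 in WT CONT and read 12.67, 12.73, 12.98, 12.99 and 13.29 in WT PCN, so that 4 of 5 PCN arrays lay below the lowest control. The difference was -0.35 ± 0.14 (SE, adjusted p = 0.276 by limma), and a second probe gave -0.35 with all 5 PCN arrays below the CONT mean. *Smtn* differed by 0.02 in Pxr-/- mice, from a CONT range of 12.93 to 13.45 to a PCN range of 12.76 to 13.71. *Synpo2* differed by -0.16 in WT and 0.30 in Pxr-/- mice, with adjusted p-values of 0.768 and 0.29, and its 2 other probes gave 0.11 and 0.17 in WT, the opposite sign. *Lmod1*, a nucleator of actin filaments, differed by -0.13 in WT and 0.13 in Pxr-/- mice.

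**Figure D2:**
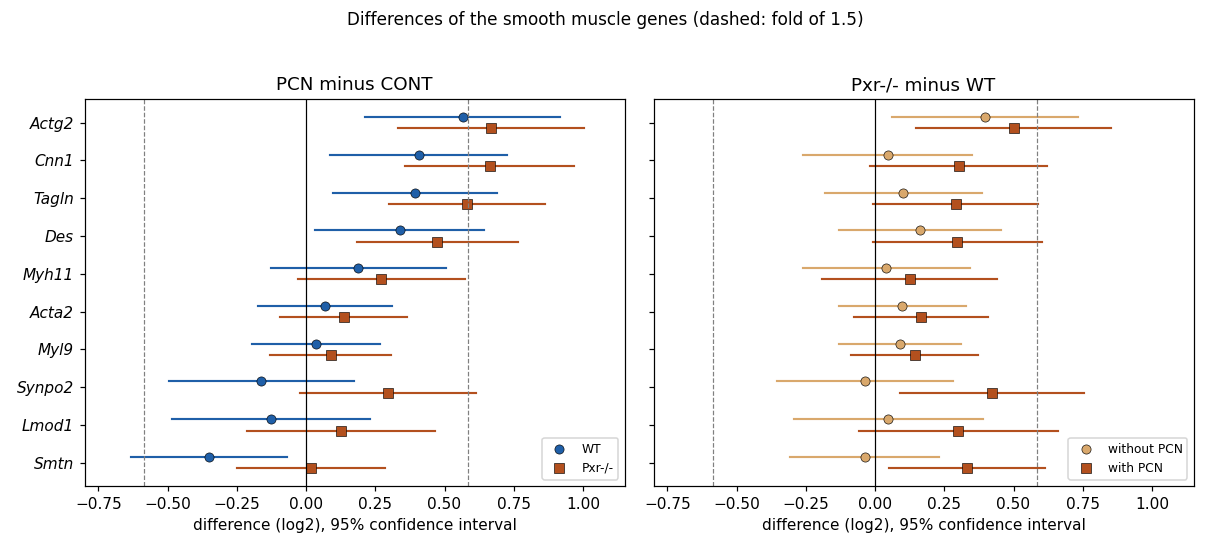
Differences in log2 units with 95% confidence intervals from limma for the 10 genes, as PCN minus CONT in each genotype (left) and Pxr-/- minus WT without and with PCN (right), with dashed lines at a fold of 1.5. The intervals are not adjusted for multiple testing. On the left, those of *Actg2*, *Cnn1*, *Tagln* and *Des* lie above 0 in both genotypes, and that of *Smtn* in WT lies below 0. On the right, those of *Actg2* lie above 0 without and with PCN, and those of *Synpo2* and *Smtn* with PCN. No interval in either panel lies wholly past a dashed line.

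Whether the response to PCN needed the receptor was addressed by the genotype by PCN interaction, the difference between the 2 PCN effects. By limma 0 of 10 members were called, against 0.0966% of all genes, and 0 had an unadjusted p under 0.05. The interaction was 0.10 for *Actg2* (95% confidence interval -0.38 to 0.59), 0.26 for *Cnn1* (-0.18 to 0.70), 0.19 for *Tagln* (-0.22 to 0.60) and 0.14 for *Des* (-0.29 to 0.56). The largest were 0.46 for *Synpo2* (-0.00 to 0.92) and 0.37 for *Smtn* (-0.02 to 0.76), and all 10 had an adjusted p of 1. The intervals of *Actg2*, *Cnn1*, *Tagln*, *Lmod1*, *Synpo2* and *Smtn* reached past a fold of 1.5, so that PCN effects differing by this much between genotypes were not excluded for these genes.

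Between genotypes no smooth muscle gene passed the test. Without PCN, limma called 0 of 10 members, against 0.185% of all genes. At an unadjusted p under 0.05 there was 1 member (share of all genes not counted). *Actg2* was 0.40 higher in Pxr-/- than in WT CONT mice (SE 0.16, adjusted p = 0.445), with 4 of 6 arrays above the highest WT array, and the other 9 members lay between -0.04 and 0.16. With PCN, limma called 0 of 10, against 0.458% of all genes. Here 3 members had an unadjusted p under 0.05 (share of all genes not counted). All 10 were higher in Pxr-/- mice by 0.12 to 0.50, with *Actg2* at 0.50 (adjusted p = 0.345), *Synpo2* at 0.42 (0.468) and *Smtn* at 0.33 (0.556). The WT and Pxr-/- arrays overlapped for every member both with and without PCN.

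Taken as 1 index, the mean deviation of the 10 genes from their averages over all arrays, the WT CONT arrays ran from -0.32 to -0.07, WT PCN from -0.30 to 0.20, Pxr-/- CONT from -0.38 to 0.20 and Pxr-/- PCN from -0.11 to 0.67 log2 units. The group means were -0.16, -0.03, -0.07 and 0.26, with SDs of 0.12, 0.20, 0.21 and 0.28. All 4 groups overlapped, as muscle signal also varied between mice of 1 group. The mean of Pxr-/- PCN lay further from the other means than those lay from each other. Within wash batch 1 the means of Pxr-/- CONT and Pxr-/- PCN were -0.04 and 0.23, and within wash batch 2 they were -0.11 and 0.29. The lowest array was Pxr-/- CONT replicate 6 and the highest Pxr-/- PCN replicate 5. Without Pxr-/- PCN replicate 5, limma called 0 members in Pxr-/- mice, with *Actg2* at 0.58 (adjusted p = 0.0711) and *Cnn1* at 0.57 (adjusted p = 0.0445). Over all 23 omissions the adjusted p ran from 0.0134 to 0.0711 for *Actg2* and from 0.011 to 0.0445 for *Cnn1*. Without Pxr-/- CONT replicate 6 or without Pxr-/- PCN replicate 2 it called 1, *Cnn1*. The averaged effect had 0 called members without WT PCN replicate 2, Pxr-/- CONT replicate 6 or Pxr-/- PCN replicate 5, in each case because *Actg2* fell short of the fold, and 2 without WT PCN replicate 3.

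**Figure D3:**
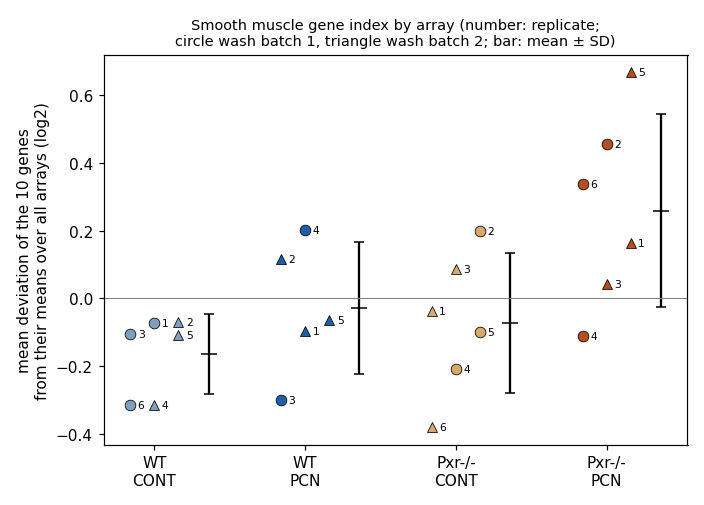
Mean deviation of the 10 smooth muscle genes from their averages over 23 arrays (y axis, log2 units) for each array in the 4 groups (x axis), labelled by replicate number, with circles for wash batch 1, triangles for wash batch 2 and bars for mean ± SD. Pxr-/- PCN replicate 5 stands highest at 0.67 and Pxr-/- CONT replicate 6 lowest at -0.38, and the groups overlap.

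The members varied together from mouse to mouse. After group and wash batch means were removed, all 45 pairs of the 10 genes correlated positively over the 23 arrays, from 0.24 between *Actg2* and *Lmod1* to 0.96 between *Myh11* and *Myl9*, with a median r of 0.72. The points of these correlations share the array and the piece of tissue. The 5 genes outside the list most like *Myh11* among 23807 were *Tpm2* (r = 0.96), which encodes the tropomyosin that lies along actin, *Ckb* (0.94), a creatine kinase, *Ptprs* (0.94), a receptor phosphatase, the array probe NAP111445-1 (0.93), which has no gene symbol, and *Mylk* (0.93), the kinase of the myosin light chain. None of these 5 was called with PCN in either genotype. *Mylk* differed by -0.07 in WT and -0.00 in Pxr-/- mice, *Ckb* by -0.10 and 0.08, NAP111445-1 by -0.10 and 0.06, and *Tpm2* by 0.26 and 0.31. *Ptprs* differed by 0.10 and by 0.32 (adjusted p = 0.0433 in Pxr-/- mice by limma, below the fold of 1.5).

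Because *Myh11* correlated with most other members, a further fit, chosen after the data were seen, held each array's *Myh11* level constant and asked what remained of the averaged PCN effect in the other 9 members. *Actg2* remained 0.43 higher (SE 0.10, adjusted p = 0.0111 by limma), *Cnn1* 0.34 (SE 0.07, adjusted p = 0.00667) and *Tagln* 0.30 (SE 0.06, adjusted p = 0.00635). *Smtn* was 0.32 lower at an equal *Myh11* level (SE 0.08, adjusted p = 0.0183), with -0.47 in WT (adjusted p = 0.0219) and -0.16 in Pxr-/- mice (adjusted p = 0.442). *Des* was 0.23 higher with an adjusted p of 0.0719, and *Acta2*, *Myl9*, *Synpo2* and *Lmod1* lay between -0.14 and -0.05, short of the threshold. Thus 4 of 9 members passed the adjusted p, against 6.62% of all genes in this fit, and 0 also passed the fold of 1.5, against 1.09% of all genes. With PCN the members therefore shifted unequally relative to *Myh11*, which itself was 0.23 higher with PCN (adjusted p = 0.181), and this fit does not show that any gene stayed constant.

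**Figure D4:**
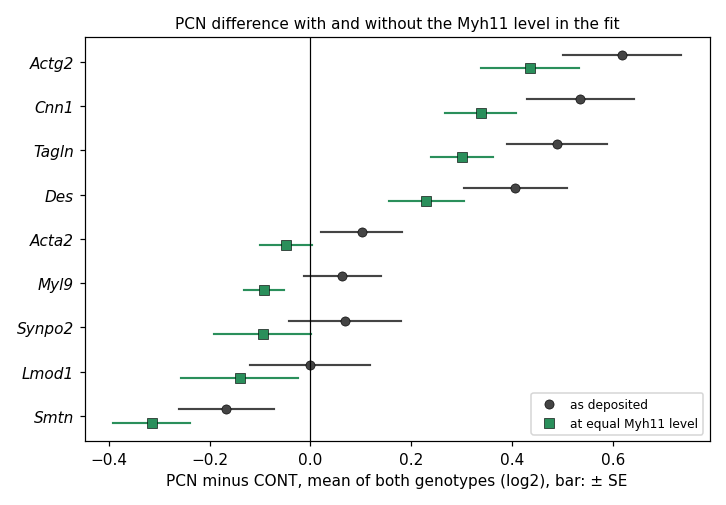
PCN minus CONT difference averaged over both genotypes (x axis, log2 units, bars ± SE) for 9 smooth muscle genes, from the deposited values (circles) and with the *Myh11* level of each array in the fit (squares). *Actg2*, *Cnn1*, *Tagln* and *Des* stay above 0 and *Smtn* lies below 0 in both fits.

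The wider contractile list was described by the same comparisons. This list and those below were also chosen with earlier results known, so the shares of all genes beside them do not test the lists. Among 33 tested genes of the contractile apparatus and its cytoskeleton, 0 were called in WT and 1, *Cald1*, in Pxr-/- mice, against 0.857% and 1.21% of all genes. *Cald1* encodes caldesmon, another actin-binding regulator of contraction, and it rose from a mean of 13.58 ± 0.22 to 14.23 ± 0.29 (SD), a difference of 0.65 ± 0.13 (SE, adjusted p = 0.00955 by limma), with 0.54 in WT mice (adjusted p = 0.0596). The list's median was 0.06 in WT and 0.19 in Pxr-/- mice. In the averaged effect 6 of the 33 passed the adjusted p upwards and 1 downwards, against 5.31% and 4.89% of all genes. The latter, named after its value was seen, was *Myocd*, which encodes myocardin, the activator of CArG-box genes, at -0.41 (SE 0.10, adjusted p = 0.0099 by limma). Among 27 genes of contraction signalling and ion channels, 1 was called in Pxr-/- mice and 0 in WT, against 1.21% and 0.857% of all genes. This was *Tacr1*, the receptor for substance P, which rose by 0.87 ± 0.19 in Pxr-/- mice (SE, adjusted p = 0.0132) and differed by 0.68 in WT mice (adjusted p = 0.106). The list's medians were -0.05 in WT and 0.04 in Pxr-/- mice.

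Markers of the other cells of the wall were examined beside the muscle genes. Of 11 fibroblast and matrix genes, 2 were called higher with PCN in WT and 5 in Pxr-/- mice, against 0.764% and 0.966% of all genes called higher, with medians of 0.29 and 0.61. *Vim*, the intermediate filament of mesenchymal cells, rose by 0.69 and 0.91 (adjusted p = 0.000747 and 4.63e-05 by limma), and *Lum*, a matrix proteoglycan, by 0.70 and 0.82 (adjusted p = 0.0214 and 0.00459). *Col1a1* and *Col3a1*, the fibrillar collagens, rose by 1.01 and 0.81 in Pxr-/- mice (adjusted p = 0.0171 and 0.0259) and differed by 0.47 and 0.35 in WT mice. *Msln*, a marker of the mesothelium that covers the gut, rose by 0.99 in WT and 0.74 in Pxr-/- mice (adjusted p = 0.013 and 0.0393), the only called gene of 7 on a list with medians of 0.04 and 0.24. In the averaged effect, only *Krt19* at -0.24 (adjusted p = 0.0477 by limma) and *Lrrn4* at -0.21 (adjusted p = 0.345) of that list were lower. *Wt1* was higher at 0.47 (adjusted p = 0.0328), and *Upk3b*, *Upk1b* and *Gpm6a* were higher by 0.10 to 0.15. These genes were named after their values were seen. *Cd68*, a macrophage gene, rose by 0.60 in Pxr-/- mice (adjusted p = 0.00695), 1 of 6 on its list. The medians of the macrophage list were 0.26 in WT and 0.40 in Pxr-/- mice, and all 6 genes were higher in Pxr-/- mice. By the adjusted p alone, 2 of them were higher there and 3 in the averaged effect, against 2.66% and 5.31% of all genes. The mean deviation of the 11 fibroblast genes from their averages ran from -0.65 to 0.01 in Pxr-/- CONT and from 0.13 to 0.70 in Pxr-/- PCN, in the same comparison in which *Actg2* and *Cnn1* rose, and the part of these cells in the muscle result was not tested.

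No gene was called in either genotype among interstitial cells of Cajal (5 genes, the pacemakers of gut movement, *Kit* at -0.02 and 0.22), enteric neurons and glia (17 genes, *Elavl4* at -0.04 and 0.04), pericytes and vascular muscle (9 genes, *Rgs5* at -0.24 and -0.11), endothelium (7 genes, *Pecam1* at 0.21 and 0.22), epithelium (9 genes, *Vil1* at -0.01 and -0.06) or adipocytes (6 genes, *Adipoq* at -0.09 and 0.17). The medians for interstitial cells of Cajal were 0.03 and 0.22 in WT and Pxr-/- mice, for pericytes 0.12 and 0.26, for endothelium 0.13 and 0.21, for neurons and glia -0.08 and -0.03 and for epithelium -0.14 and -0.09. By the adjusted p alone, against 5.31% of all genes upwards and 4.89% downwards in the averaged effect, 3 of 7 endothelial genes, 4 of 9 pericyte genes, 1 of 5 of interstitial cells of Cajal and 1 of 17 of neurons and glia were higher, and 2 of 9 epithelial genes were lower. The endothelial gene furthest up, named after its value was seen, was *Vwf*, which encodes von Willebrand factor, at 0.30 in WT (adjusted p = 0.145) and 0.49 in Pxr-/- mice (adjusted p = 0.00426). The same measure over the epithelial genes ran from -0.01 to 0.23 in Pxr-/- CONT and from -0.05 to -0.01 in Pxr-/- PCN. Among 10 tested skeletal and cardiac muscle genes, *Acta1*, the skeletal actin, fell by 1.22 in Pxr-/- mice (SE 0.27, adjusted p = 0.0142 by limma), with arrays of 9.77 to 11.71 without PCN and of 9.19 to 9.72 with it that did not overlap. In WT mice *Acta1* differed by -0.04.

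**Figure D5:**
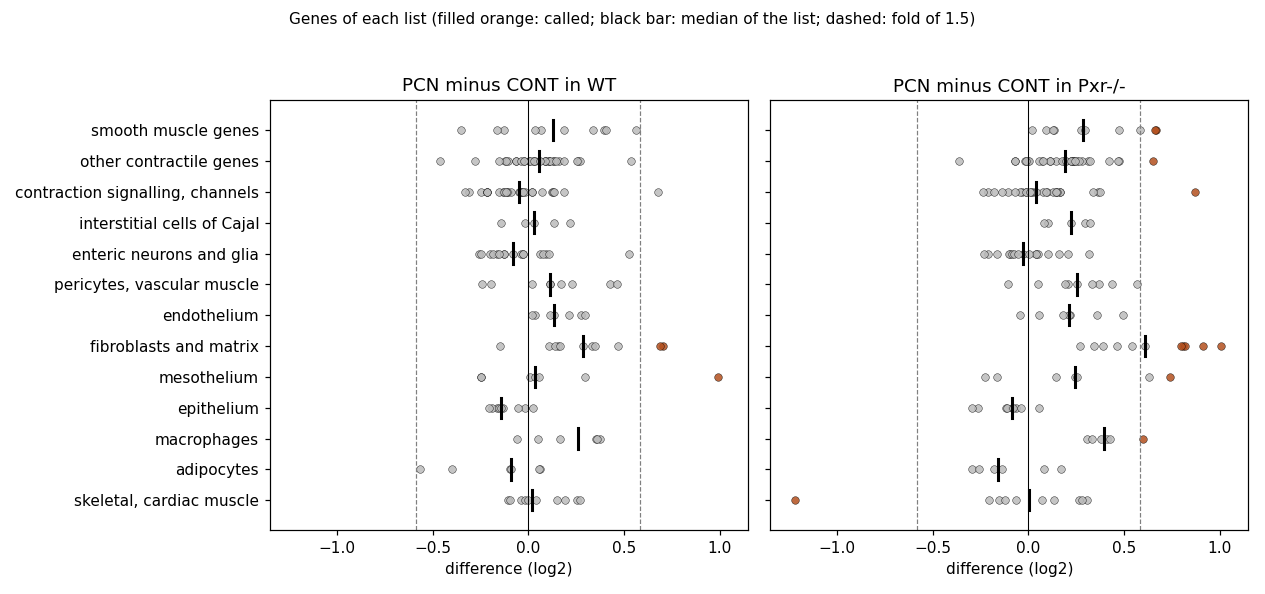
PCN minus CONT difference (x axis, log2 units) of each gene in 13 lists (y axis) for WT (left) and Pxr-/- mice (right), with orange points for called genes, black bars for list medians and dashed lines at a fold of 1.5. The fibroblast and matrix list stands furthest right, with medians of 0.29 and 0.61, against 0.13 and 0.28 for the smooth muscle genes.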

How the data were processed

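Total RNA (150 ng, labelled with Cy3) of 23 ilea was hybridised to Agilent mouse arrays, in 2 wash batches and on 8 slides. Per the labels and methods, the authors extracted signals with Agilent Feature Extraction 10.10.1.1, filtered the median signal, took log2, corrected for wash batch normalised by CrossNorm and deposited these log2 values. How samples were grouped in that step, and its filter, are not given in the sources used here. All columns shared 1 set of quantiles and followed the deposited intensity (median signal) of the scanner files with Spearman correlations of 0.9995 to 0.9997. Scanner intensity, flags for background and saturation, probe names and probe sequences also came from the deposited scanner files.

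Deposited log2 values were fitted with limma 3.58.1 (R 4.3.3) with 4 groups and wash batch as terms, moderated variances and Benjamini-Hochberg adjustment over 37161 probes. A call required a fold above 1.5 and an adjusted p not over 0.05. Confidence levels are 95%. The script was tested on simulated data. Named genes were the 10 members, up to 4 called genes of each other list with the largest change (or its first gene), and the 5 genes most like *Myh11*. Members and lists were chosen with earlier results of these data known. Of the other lists, *Mrtfa*, *Adra1a*, *Myh1*, *Myh6*, *Mb* and *Actn3* were not analysed here. Labels do not pair replicate numbers, and same-numbered arrays did not deviate together (mean r -0.0049, against 0.001 for other pairs), so no block was used. Replicates are separate mice. Alternatives were other normalisations of the scanner intensity (quantile, 75th percentile, median-centred, normexp with an offset of 50), other terms (no wash batch, each wash batch alone, slide, replicate block, *Myh11* level), all probes averaged, no fold threshold, a filter on dim probes, and leaving out each array. The sequence of 1 probe is not reported here.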

Additional observations from a re-analysis of the deposited data

Results flagged for a closer look

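In WT CONT mice, *Myl9* of replicate 6 stood apart from the other 5 arrays, at 16.62 on the log2 scale against 16.86 for the nearest, a gap of 0.649 of the group's range. Of 40 groups (10 genes in 4 groups) this was the only one with such an array, and chance alone gives about 1 in 20. The same array had the second lowest smooth muscle index of all 23, at -0.32.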

How the results depend on the processing

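The count of called members was 0 under every alternative run for PCN in WT, the interaction and both genotype comparisons. In Pxr-/- mice it was 0 within wash batch 1, 0 within wash batch 2 and 0 with the *Myh11* level in the fit, and 0 to 3 when single arrays were left out. For the averaged PCN effect it was 0 with median-centred signal, 0 within either wash batch, 0 with the *Myh11* level, 4 without the fold threshold, and 0 to 2 when single arrays were left out. Each wash batch holds 11 or 12 arrays, and for PCN in Pxr-/- mice the fits within a batch called 10 and 159 of all 37161 probes, so 0 of 10 says little there. The other causes were not tested. With the *Myh11* level in the fit, the median over the members was -0.0478 for the averaged PCN effect and -0.054 for PCN in WT. For genotype without PCN, this median reached -0.0037 at its lowest among the alternatives. With quantile-normalised scanner signal, *Tagln* passed the fold in Pxr-/- mice at 0.59. The filter on dim probes removed none. A replicate block kept the counts of called members at 0, 2 and 1 for PCN in WT, in Pxr-/- mice and on average, with medians of 0.1088, 0.2845 and 0.1564, and the 33 same-numbered pairs correlated at -0.2059 to 0.4287 with a mean of -0.0049, so the numbers were not taken to pair the mice, although 8 of 23 arrays correlated best with an array of their own number. How many arrays would match their own number without pairing was not counted. Small differences, none of them called, turned sign. *Smtn* in Pxr-/- mice gave -0.0223 with the 75th percentile, -0.0239 with slide as a block, -0.0609 with median-centred signal, -0.1429 within wash batch 1, -0.0396 with all probes averaged and -0.1575 with the *Myh11* level. *Lmod1* gave 4e-04 for the averaged effect without the wash batch term, and within wash batch 1 it gave 0.0471 for that effect, 0.0226 in WT, -0.1171 for genotype without PCN and -0.0679 with PCN. *Synpo2* in WT gave 0.0376 with all probes averaged. The *Myl9* interaction gave -0.0058 with the 75th percentile and -0.0034 with the *Myh11* level. For genotype without PCN, *Smtn* gave 5e-04 with the 75th percentile, 0.0239 within wash batch 1 and 0.0083 with all probes averaged, *Synpo2* gave 0.0229 within wash batch 2 and 0.0318 with all probes averaged, and *Cnn1* gave -9e-04 within wash batch 2. Slide as a block gave -0.0658 for *Cnn1*, -0.0103 for *Myh11* and -0.0502 for *Lmod1* in that comparison. With the *Myh11* level, *Acta2* gave -0.054 in WT, -0.0415 in Pxr-/- mice and -0.0478 on average, *Myl9* -0.09, -0.0934 and -0.0917, *Lmod1* -0.0387 in Pxr-/- mice and *Synpo2* -0.0944 on average. Leaving out single arrays turned the sign within these ranges: *Myl9* in WT -0.0148 to 0.0968, *Smtn* in Pxr-/- mice -0.0734 to 0.1219, the averaged effect of *Lmod1* -0.0775 to 0.054, the interaction of *Acta2* -0.0104 to 0.1371, of *Actg2* -0.0051 to 0.2526, of *Myh11* -0.0196 to 0.1863 and of *Myl9* -0.0129 to 0.1188, and genotype without PCN for *Myh11* -0.0209 to 0.1274, *Cnn1* -0.0292 to 0.1224, *Lmod1* -0.0559 to 0.103, *Synpo2* -0.1092 to 0.0399 and *Smtn* -0.0868 to 0.0314.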
